A study of Ambystoma mexicanum with 20 samples.

Results

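The middle piece of the axolotl oocyte, segment C, was compared with the piece at the animal pole, segment A. The comparison rested on 8 of the 20 libraries of the series, 4 of each segment, and each C library was paired with the A library of the same oocyte. The axolotl (Ambystoma mexicanum) is a salamander, and an oocyte is an immature egg cell. Each of 4 oocytes was embedded, cut in a cryostat and divided along the axis into the segments A (animal end), B, C, D and E (vegetal end). Oocytes are called 1 to 4 by their identifier in the labels, which corresponds to 10, 4, 5 and 9 in the sample titles. No strain, age, stage or treatment is given for any of them, and nothing says whether they came from separate females. The p-values below therefore measure how differences between segments vary over these 4 oocytes. In the model fits with the oocyte as a block, that spread was pooled over all segments, D and E included. Each library was made from 80 ng of total RNA after depletion of ribosomal RNA, so a level is a share of the RNA of a segment and not an amount per segment. A fall of an RNA in a segment and a rise of all other RNA there cannot be told apart.

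In amphibian oocytes the animal side holds the nucleus, while most of the yolk lies on the vegetal side. Some messenger RNAs are moved to the vegetal cortex and anchored there during oocyte growth. In the frog Xenopus these include gdf1 and vegt, which take part in forming the germ layers, and RNAs of the germ plasm, which marks the future germ cells. RNAs kept at a single pole pass unequally to the cells of the embryo. The question here was whether the steps from A to B and from B to C add up to a change in RNA composition. The other question was whether such a change runs the same way as the larger differences among D and E.

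The deposited features carry identifiers without gene names, and 0 of the 32960 were found in the axolotl gene table of RefSeq. Features are therefore described as groups, and 4 single features are named by their identifier. The labelled cell type could not be checked against markers for the same reason. The counts were raw, with totals from 3000775 to 15554319 in A and from 2741140 to 9694202 in C. The total of C divided by that of A was 3.23 in oocyte 1, 0.901 in oocyte 2, 0.686 in oocyte 3 and 0.380 in oocyte 4, so neither segment was sequenced more deeply throughout. Detected features numbered 30237 to 31949 in A and 29703 to 31592 in C. Levels are given as CPM, counts-per-million of a library total that was scaled by TMM (trimmed mean of M-values), which sets aside the features that differ most between libraries.

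No RNA was distinguishable between C and A at the adjusted threshold. Of 32302 features tested, 0 passed an adjusted p of 0.05 in edgeR's quasi-likelihood test with the oocyte as a block, which is 0% of the features tested. The smallest adjusted p was 0.821. At an unadjusted p under 0.05 there were 1175 features, or 3.64%, of which 646 were higher in C and 529 were lower. DESeq2, with the same block, called 72 features, 32 higher in C and 40 lower, and 1935 at an unadjusted p under 0.05. For comparison, 2041 features (6.32%) passed the adjusted threshold between E and D, and 2224 (6.89%) between D and C, in the same fit with edgeR.

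The size of change that remained possible depended on the level. The fitted log2 fold change of C over A had a median of 0.003 over all features and a median standard error of 0.32. In 17602 features (54.5%), the 95% interval of the log2 fold change lay within a 2-fold change in either direction. Among the 2200 features with a mean level of 100 to 1000 CPM this share was 95.6%, and the interval lay within a 1.5-fold change for 88.3%. Among the 16635 features at 1 to 10 CPM it lay within 2-fold for 28.01%, so for most of those the interval did not exclude a 2-fold difference.

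Fitted changes of 2-fold or more were frequent where counts were low. They were found for 10.8% of the features at 1 to 10 CPM, for 1.91% at 10 to 100 CPM and for 0.682% (15 features) at 100 to 1000 CPM. None of the 28 features at 1000 CPM or above reached 2-fold, and their log2 fold changes ran from -0.57 to 0.65. The share of features at an unadjusted p under 0.05 was highest, at 9.23%, in the stratum of 100 to 1000 CPM, with 113 higher in C and 90 lower.

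**Figure D1:**
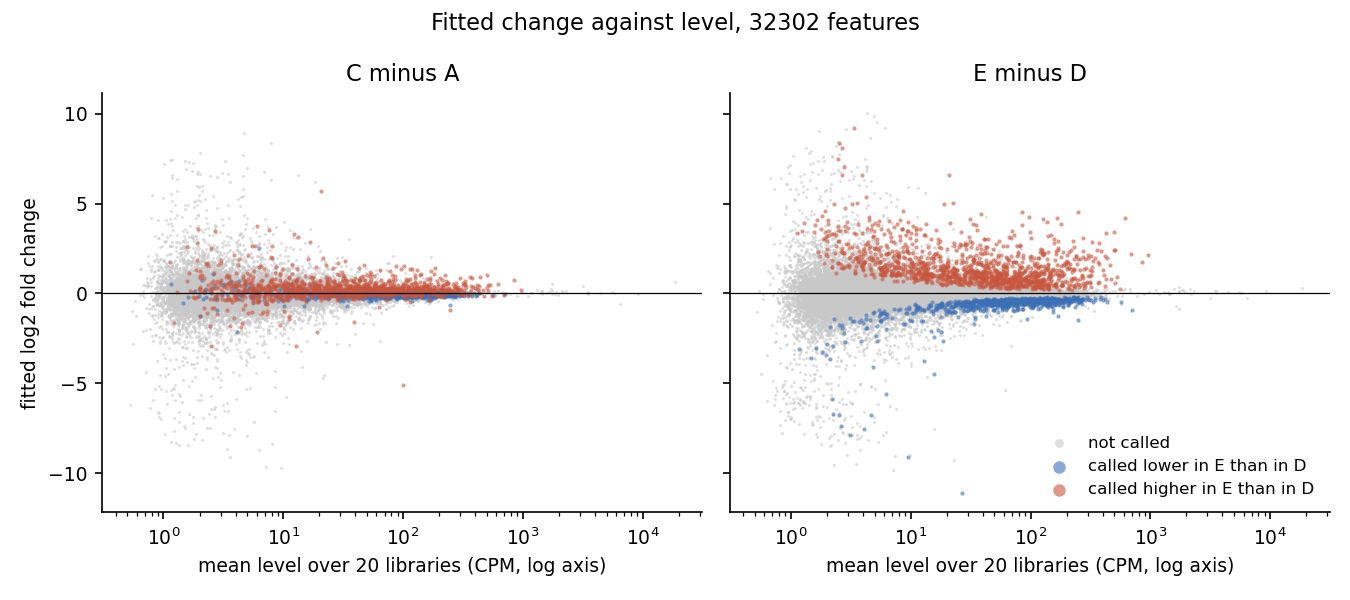
Fitted log2 fold change (vertical axis) against the mean level in CPM over 20 libraries (horizontal log axis) for C minus A (left) and E minus D (right). Each point is a feature, and colours mark the 1272 features called higher and the 769 called lower in E than in D. On the left most coloured points lie within a 2-fold change, the red ones mostly above 0 (fitted median 0.18) and the blue ones mostly below it (-0.06). Of the red ones, 6.53% were at least 2-fold higher and 1.73% at least 2-fold lower in C, against 3.45% and 3.23% of all features.

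Hardly any RNA was found in all libraries of C and missing from all libraries of A, or the reverse. A feature was counted as present where every library of a segment held more than 3 counts, and as missing where every library held at most 3. By this rule 4 of the 32960 features were missing from A and present in C, and 4 were missing from C and present in A. Features present in only some libraries of a segment fall outside the rule. In total 397 were missing from A, 461 from C and 217 from both. Between D and E, 4 features were missing from D and present in E, while 42 were missing from E and present in D. The limit of 3 counts averaged 0.564 CPM in A, 0.574 in C and 1.61 in E, so absence was easier to call in E. Such a limit reflects counting error only.

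The step from A to B and the step from B to C did not add up to a clearly larger distance. As a distance, the median absolute log2 difference was taken over the 2228 features with a mean level of at least 100 CPM. Between A and C of the same oocyte it was 0.158 in oocyte 1, 0.101 in oocyte 2, 0.128 in oocyte 3 and 0.087 in oocyte 4. It averaged 0.118 ± 0.031 (SD, n = 4), against 0.103 ± 0.011 between A and B and 0.098 ± 0.020 between B and C. A to C exceeded A to B in 3 of 4 oocytes (exact paired permutation p 0.375, two-sided) and B to C in 3 of 4 (exact p 0.5). Oocyte 4 was the exception in both, with a smaller distance from A to C than over either step. Its B library held 1467884 counts, the smallest total among A, B and C, against 15554319 in its A library. Counting error widens such a distance at low totals, and its part here was not tested.

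The later distances were larger. C to D averaged 0.213 ± 0.028 and D to E 0.230 ± 0.092 (SD, n = 4), and each exceeded A to C in 4 of 4 oocytes. The exact two-sided paired permutation p was 0.13 for both, the smallest that 4 pairs can give. D to E was 0.316 in oocyte 2, whose E library held 806943 counts, the smallest total of the series. In oocyte 1 it was 0.301, with 6651808 counts in E. The part of counting error in these distances was not tested. Distances between oocytes averaged more than those from A to C. For the same segment of 2 different oocytes the distance averaged 0.177 ± 0.056 in A and 0.175 ± 0.063 in C (SD over 6 pairs of oocytes, which share oocytes). Within these, oocytes 2 and 3 lay 0.097 apart in A, and oocytes 1 and 4 lay 0.091 apart in C, distances of the size seen between A and C.

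**Figure D2:**
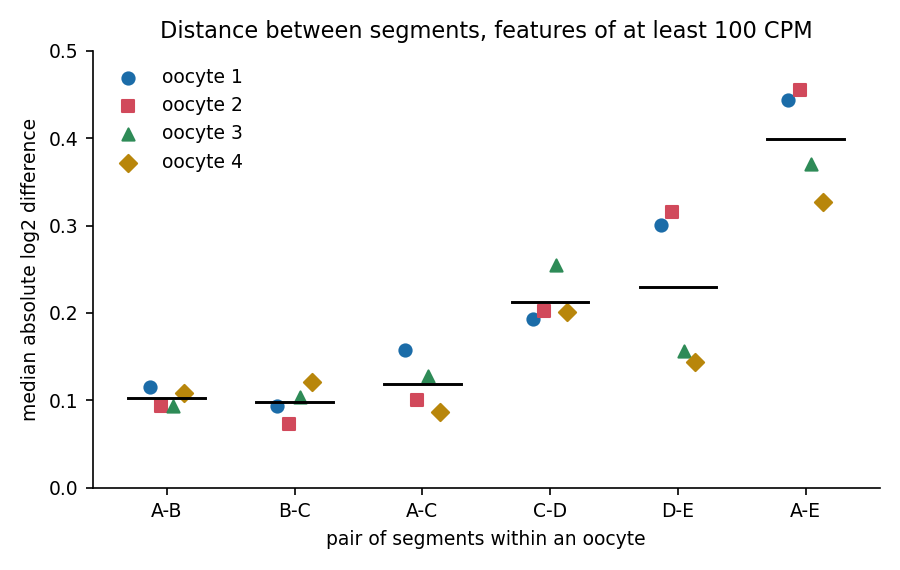
Median absolute log2 difference (vertical axis) between 2 segments of an oocyte, over the 2228 features of at least 100 CPM. Points are the 4 oocytes and lines their mean: A to C (0.118) lies near A to B (0.103) and B to C (0.098), below C to D (0.213) and D to E (0.230).

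The single steps gave the same picture feature by feature. Each of the contrasts of neighbours, B over A and C over B, gave 0 features at an adjusted p under 0.05 (0% of those tested, edgeR), with 782 (2.42%) and 795 (2.46%) at an unadjusted p under 0.05. DESeq2 called 39 in each. The level of B was also set against the mean of A and C, to find RNAs for which B lies off the line between them. That contrast gave 0 features (0%), with 639 (1.98%) unadjusted, and DESeq2 called 27. A joint test among A, B and C gave 0 (0%), with 830 (2.57%) unadjusted. DESeq2 called 172 in a likelihood ratio test refitted on the libraries of A, B and C alone, so this pair of counts differs in more than the program. C against A thus had more features at an unadjusted p under 0.05 than either step, 1175 against 782 and 795, without any passing the adjustment in edgeR. These counts were 3.64%, 2.42% and 2.46% of the features tested. In this fit over all features, each share lay below the 5% that chance alone gives at this threshold. By level, the share for C against A was 2.07% at 1 to 10 CPM and 9.23% at 100 to 1000 CPM. DESeq2 gave 1935 of 32302 features unadjusted for C against A, which is above 5%. In edgeR on A, B and C alone, 989 were higher and 935 lower in C, unadjusted. The larger count for C against A does not by itself show that the steps add up.

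The direction of the small differences between A and C was then read in groups of features formed without those libraries. E against D shares no library with C against A, although both come from the same oocytes and the same fit. Features called higher in E than in D numbered 1272 (3.94% of those tested), and those called lower in E numbered 769 (2.38%). The former are RNAs with a higher level at the vegetal pole than next to it, and the latter are RNAs that are scarcer there. No limit was set on the fold change, so both groups include modest differences. Their median mean level in A was 13.1 CPM and 74.8 CPM respectively, against 8.63 CPM over all features tested.

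The features called higher in E tended to be higher in C than in A. Their fitted log2 fold change of C over A had a median of 0.18, against 0.003 over all features tested. It was above 0 for 981 of 1272 (77.1%), against 50.5% over all features. At an unadjusted p under 0.05, 159 of them (12.5%) were higher in C, where the share over all features was 2%, and 10 (0.786%) were lower, where it was 1.64%. None of them (0) passed the adjusted threshold in edgeR. DESeq2 called 6 of the 1272 higher and 1 lower in C, where it called 32 higher and 40 lower among all 32302 features. All 4 C libraries lay above all 4 A libraries for 42 features (3.30%), against 1% over all features, and below them for 4 (0.314%), against 0.876%. C exceeded A in each of the 4 oocytes for 232 features (18.2%), against 7.66%, and was below it in each for 28 (2.20%), against 7.2%. The features called higher in E had median levels of 13.1 CPM in A and 81.5 CPM in E, against 8.63 and 9.25 CPM over all features. Over all features the share at an unadjusted p under 0.05, both directions together, differed with level. It was 2.07% at 1 to 10 CPM, 4.68% at 10 to 100 CPM and 9.23% at 100 to 1000 CPM.

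The features scarcer at the vegetal pole showed the opposite tendency, at a smaller size. Their fitted log2 fold change of C over A had a median of -0.06. At an unadjusted p under 0.05, 63 of 769 (8.19%) were lower in C and 14 (1.82%) higher, against 1.64% and 2% over all features. Here C was below A in each of the 4 oocytes for 170 features (22.1%), against 7.2% over all features. It was above A in each for 39 (5.07%), against 7.66%. These features had a higher median level in A (74.8 CPM) than all features (8.63 CPM), and such shares differed with level. At 10 to 100 CPM, 4.68% of all features had an unadjusted p under 0.05, both directions together. The libraries of the segments did not overlap for 10 features lower in C (1.30%) and 4 higher in C (0.520%), against 0.876% and 1% over all features. The 30261 features not called between E and D had a median of -0.001, with 473 (1.56%) higher and 456 (1.51%) lower at an unadjusted p under 0.05.

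The oocytes did not contribute equally to this tendency. For the features called higher in E, the median log2 difference of C over A was 0.08 in oocyte 1, -0.03 in oocyte 2, 0.39 in oocyte 3 and 0.21 in oocyte 4, or 0.16 ± 0.18 (SD, n = 4). Oocytes 3 and 4 carried most of it, and oocyte 2 lay on the other side of 0. In fits without oocyte 3 the count higher in C at an unadjusted p under 0.05 was 67 in place of 159, with 4 lower, where all features gave 400 higher and 381 lower. Without oocyte 4 it was 80, with 14 lower, where all features gave 650 and 555. Without oocyte 1 it was 186 of 615 features higher in C, and without oocyte 2 it was 206 of 640. For the features called lower in E the medians were -0.09, -0.006, -0.08 and -0.05 in oocytes 1 to 4, or -0.06 ± 0.04 (SD, n = 4), below 0 in 4 of 4. Without oocyte 3, 32 of these were lower in C at an unadjusted p under 0.05, and without oocyte 1 there were 36, in place of 63. Over all features 381 and 402 were lower in those fits, against 529.

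The oocytes were also read in pairs, 1 with 4 and 2 with 3, a choice made with earlier results of these data known. By the distance used above, oocytes 1 and 4 lay 0.091 apart in C and oocytes 2 and 3 lay 0.101 apart, against 0.188 to 0.227 between the pairs. In A the pairs were less distinct, since oocyte 1 was 0.152 from oocyte 4 and 0.159 from oocyte 3. In oocytes 1 and 4 alone, 90 of the 1272 features were higher in C and 2 lower at an unadjusted p under 0.05, where all features gave 358 and 292. In oocytes 2 and 3 alone 86 were higher and 5 lower, where all features gave 532 and 395.

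By step, the tendency lay between B and C. For the features called higher in E, the median log2 difference of B over A was 0 in oocyte 1, -0.14 in oocyte 2, 0.04 in oocyte 3 and 0 in oocyte 4. That of C over B was above 0 in all 4 oocytes, at 0.05, 0.10, 0.32 and 0.22. At an unadjusted p under 0.05, 167 of the 1272 were higher in C than in B and 2 were lower, where C against B gave 1.51% and 0.954% over all features. B against A gave 22 higher and 21 lower, where the shares over all features were 1.19% and 1.23%. For the features called lower in E, C over B was below 0 in all 4 oocytes, from -0.11 to -0.02, while B over A ran from -0.02 to 0.04. These steps share the libraries of B, so a high value of one lowers the other. The later steps of the same features, which the grouping used in part, were larger: D over C averaged 0.90 ± 0.29 and E over D 1.22 ± 0.32 for those higher in E (SD of the oocyte medians, n = 4).

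The features called between D and C gave values for the step from A to B, which shares no library with them. The 1338 called higher in D (4.14% of those tested) had a median log2 difference of B over A of 0, -0.17, 0.007 and -0.004 in oocytes 1 to 4. At an unadjusted p under 0.05, 11 of them were higher in B and 38 lower, where the shares over all features were 1.19% and 1.23%. The 886 called lower in D (2.74%) had medians of 0.01, 0.05, 0.08 and 0.03, above 0 in 4 of 4 oocytes, with 31 features higher in B and 1 lower. In both groups more of these counts lay on the side opposite to the step from C to D than on the same side.

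The share of all counts held by the features called between E and D was also read, a measure that weights abundant RNAs. For the group higher in E its direction from B to C was that of the medians, while from A to C it differed in oocyte 1. The features called higher in E held 4.39%, 4.27%, 4.05% and 4.33% of the counts in segment A of oocytes 1 to 4. In B they held 4.24%, 3.996%, 4.18% and 4.42%. In C they held 4.38%, 4.25%, 5.21% and 5.03%. The share in C was thus above the range of A in oocytes 3 and 4 and within that range in oocytes 1 and 2. C exceeded A by 0.458 ± 0.573 percentage points (SD of the difference, n = 4), higher in 2 of 4 oocytes, with an exact two-sided paired permutation p of 0.5. C exceeded B in 4 of 4 oocytes, by 0.506 ± 0.398 points (exact p 0.13, again the smallest possible). In D the shares were 5.995%, 7.50%, 11.4% and 9.85%, so oocytes 3 and 4, which were high in C, were also high in D.

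The features called lower in E held 8.17% ± 0.281 of the counts in A, 8.25% ± 0.174 in B and 7.76% ± 0.342 in C (SD, n = 4 each). Their share was lower in C than in A in 3 of 4 oocytes and was 0.015 points higher in C in oocyte 2 (exact two-sided paired permutation p 0.25). From B to C it was lower in 4 of 4 oocytes, by 0.484 ± 0.244 points (exact p 0.13).

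**Figure D3:**
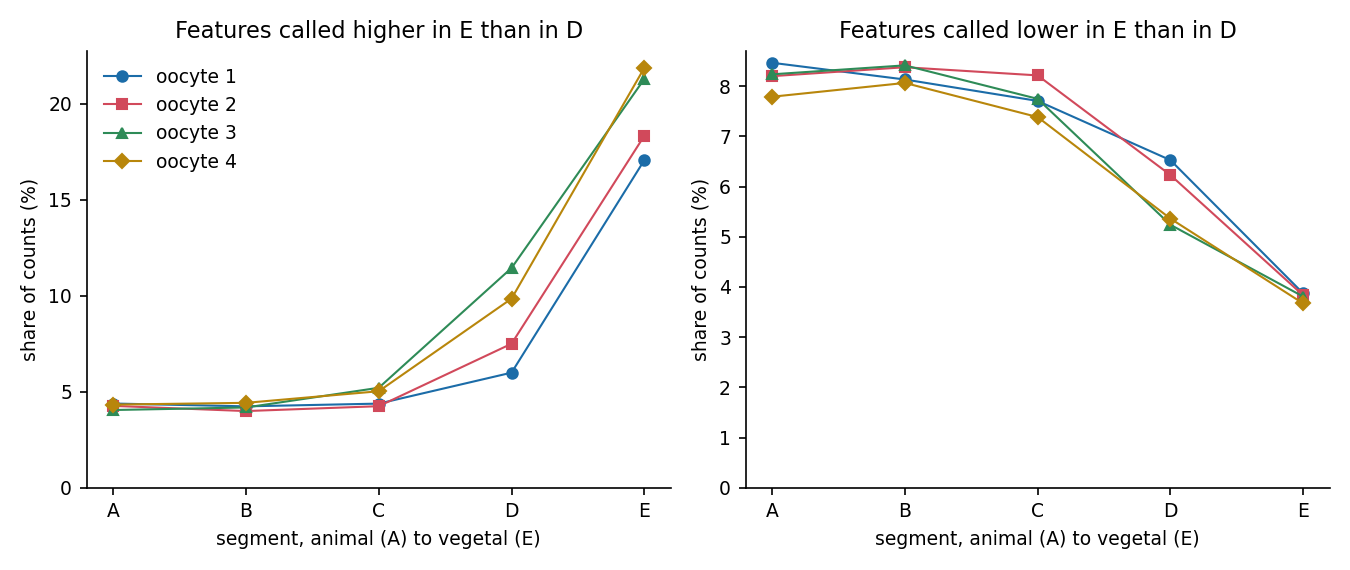
Share of all counts (vertical axis, %) held by the 1272 features called higher (left) and the 769 called lower (right) in E than in D, by segment and oocyte. A and B lie near 4.2% on the left and 8.2% on the right, C leaves that level in oocytes 3 and 4 on the left, and D and E, which chose the features, lie farther away.

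Across the size of the change of E over D, the difference between C and A did not take the same course in all 4 oocytes, though oocytes 3 and 4 were alike. All features tested were sorted by their fitted log2 fold change of E over D. For the 1681 features with a change of E over D from 1 to 2, the median log2 difference of C over A was 0.08, -0.002, 0.26 and 0.21 in oocytes 1 to 4. For the 766 features at 2 or above it was 0, 0, 0.13 and 0.06. These values use log2 CPM with a prior count of 2, which draws differences at low counts toward 0. The fitted log2 fold change of C over A had a median of 0.30 in that bin and 0.18 in the bin from 1 to 2. The order of these bins over all features thus depended on the measure. The oocyte medians were also read in features with a mean level of at least 10 CPM over the 20 libraries. That limit was chosen after the values had been seen, and a feature abundant in E alone could pass it, so these bins describe a chosen subset. For the 873 features with a change of E over D from 0.5 to 1, the median log2 difference of C over A was 0.09, 0.001, 0.19 and 0.14 in oocytes 1 to 4. For the 566 features from 1 to 2 it was 0.05, -0.07, 0.57 and 0.36. For the 195 features at 2 or above, that is at least 4-fold higher in E by the fit, it was 0.01, -0.36, 1.12 and 0.73. In this subset the values of oocytes 3 and 4 were larger in each bin than in the one before, those of oocyte 1 stayed within 0.10 of 0, and those of oocyte 2 were below 0 in the upper bins.

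In those 195 features, of which 154 were called between E and D, the value of oocyte 2 came with a high level in its segment A. They held 0.265% of the counts in A of oocyte 2, against 0.193% in A of oocyte 1, 0.181% in oocyte 3 and 0.183% in oocyte 4. In C they held 0.187%, 0.223%, 0.398% and 0.288% in oocytes 1 to 4. The median log2 difference of B over A was -0.65 in oocyte 2 and from 0 to 0.05 in the other 3 oocytes. That of C over B was 0.16, 0.15, 1.05 and 0.60 in oocytes 1 to 4, above 0 in all of them. Over all 766 features at 2 or above, without the limit on level, C over B averaged 0.02 ± 0.03 (SD, n = 4). There it was above 0 in 2 of 4 oocytes. The shares in A rest on 5786 to 28534 counts per library.

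On the other side the differences stayed small. In the same subset of at least 10 CPM, 1102 features had a change of E over D from -1 to -0.5. Their median log2 difference of C over A was -0.09, 0.004, -0.06 and -0.05 in oocytes 1 to 4. The 229 features of the subset below -1 gave 0, -0.01, -0.12 and -0.06. For these 229, C over B averaged -0.09 ± 0.02 (SD, n = 4) and was below 0 in all 4 oocytes. Over all 1860 features below -1, without the limit on level, C over B averaged -0.04 ± 0.08 (SD, n = 4). Their C over A was 0, 0, 0 and -0.0007 in oocytes 1 to 4.

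**Figure D4:**
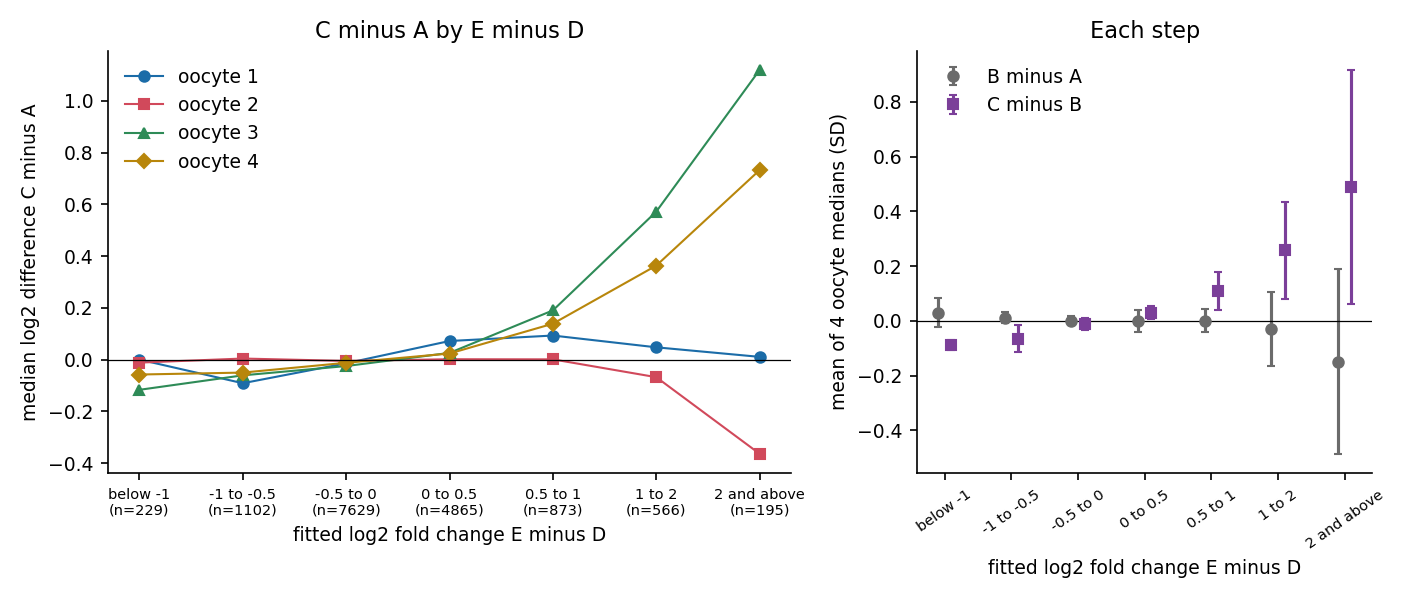
Left: median log2 difference of C over A (vertical axis) in each oocyte, for features of at least 10 CPM sorted by their fitted log2 fold change of E over D (horizontal axis). Right: mean and SD over the 4 oocytes of the same medians for B over A and C over B. In this subset C over B was largest in the upper bin (0.49 ± 0.43), against 0.02 ± 0.03 over all 766 features of that bin.

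Among single features, 2 higher and 2 lower in C are named because they had the smallest unadjusted p among features of at least 10 CPM over A and C that moved the same way in all 4 oocytes. Such features numbered 1398 higher and 1303 lower in C. None of the 4 passed the adjusted threshold in edgeR, where each had an adjusted p of 0.821. DESeq2 called all of them.

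AMEXTC_0340000032677 was nearly missing from A and highest in C in 3 of 4 oocytes. Its level was 0, 0, 4.57 and 0.061 CPM in segment A of oocytes 1 to 4, which stands for 0, 0, 19 and 1 counts. In B it was 19.3, 11.9, 33.7 and 24.8 CPM, and in C it was 45.0, 42.3, 44.8 and 36.9 CPM. The libraries of A, B and C did not overlap, and B lay between A and C in every oocyte. The mean of C was 36.5 times that of A, and the fitted log2 fold change was 6.21 ± 1.23 (SE, unadjusted p 0.000164), a value that depends on the prior count where a library holds no count. The mean of A rests on oocyte 3, and without that oocyte the fitted value was 10.3. Over all alternatives it ran from 4.84 to 10.3.

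Past C its level was lower again in 3 of 4 oocytes. In D it was 2.19, 19.5, 17.1 and 43.2 CPM, and in E 0, 0, 13.9 and 8.62 CPM. Its highest level thus lay in the middle of the axis in oocytes 1, 2 and 3 and in D in oocyte 4. The changes of D against C and of E against D did not pass the threshold (adjusted p 0.5001 and 0.314, edgeR).

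AMEXTC_0340000166121 was higher in C than in A by a modest amount and much higher farther on. Its level was 16.004, 24.5, 18.5 and 18.1 CPM in A and 21.1, 32.0, 38.1 and 31.6 CPM in C of oocytes 1 to 4. The groups overlapped, since A of oocyte 2 lay above C of oocyte 1. C divided by A ran from 1.31 to 2.06 over the oocytes, and the fitted log2 fold change was 0.66 ± 0.13 (SE, unadjusted p 0.000182). In D it was 53.2, 103, 131 and 87.2 CPM, and in E 159, 223, 227 and 217 CPM. The rise passed the threshold for D against C (log2 fold change 1.59, adjusted p 9.65e-05) and for E against D (1.19, adjusted p 0.000136, edgeR), and in every oocyte each segment held a higher level than the one before it.

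AMEXTC_0340000046452 was lower in C than in A in every oocyte and higher again in D. Its level was 72.0, 110, 80.8 and 41.8 CPM in A, 45.7, 88.8, 67.2 and 38.8 CPM in B and 32.3, 72.8, 37.8 and 30.8 CPM in C. It stepped down from A to B and from B to C in all 4 oocytes, although the groups overlapped, because oocyte 2 was high and oocyte 4 low in A and B. A divided by C ran from 1.36 to 2.23, and the fitted log2 fold change was -0.81 ± 0.15 (SE, unadjusted p 6.75e-05). In D it was 62.0, 74.3, 73.5 and 45.1 CPM (log2 fold change of D over C 0.62, adjusted p 0.0188, edgeR), a difference that shares the libraries of C for which the feature was chosen. In E it was 36.7, 85.5, 43.1 and 34.05 CPM, below D in 3 of 4 oocytes (log2 fold change of E over D -0.45, adjusted p 0.107, edgeR).

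AMEXTC_0340000164858 differed more between oocytes than between segments. Its level was 29.5, 19.4, 281 and 5.04 CPM in A of oocytes 1 to 4, and 1.77, 3.90, 60.5 and 1.94 CPM in C. Oocyte 3 was far above the others in both segments. Within oocytes A exceeded C by 2.61 to 16.7 times, and the fitted log2 fold change was -2.62 ± 0.54 (SE, unadjusted p 0.000237). In D it was 2.19, 13.6, 332 and 3.63 CPM in oocytes 1 to 4, above A in oocyte 3 and below it in the other 3 oocytes. In E it was 10.7, 62.8, 367 and 7.76 CPM, above A in oocytes 2, 3 and 4.

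**Figure D5:**
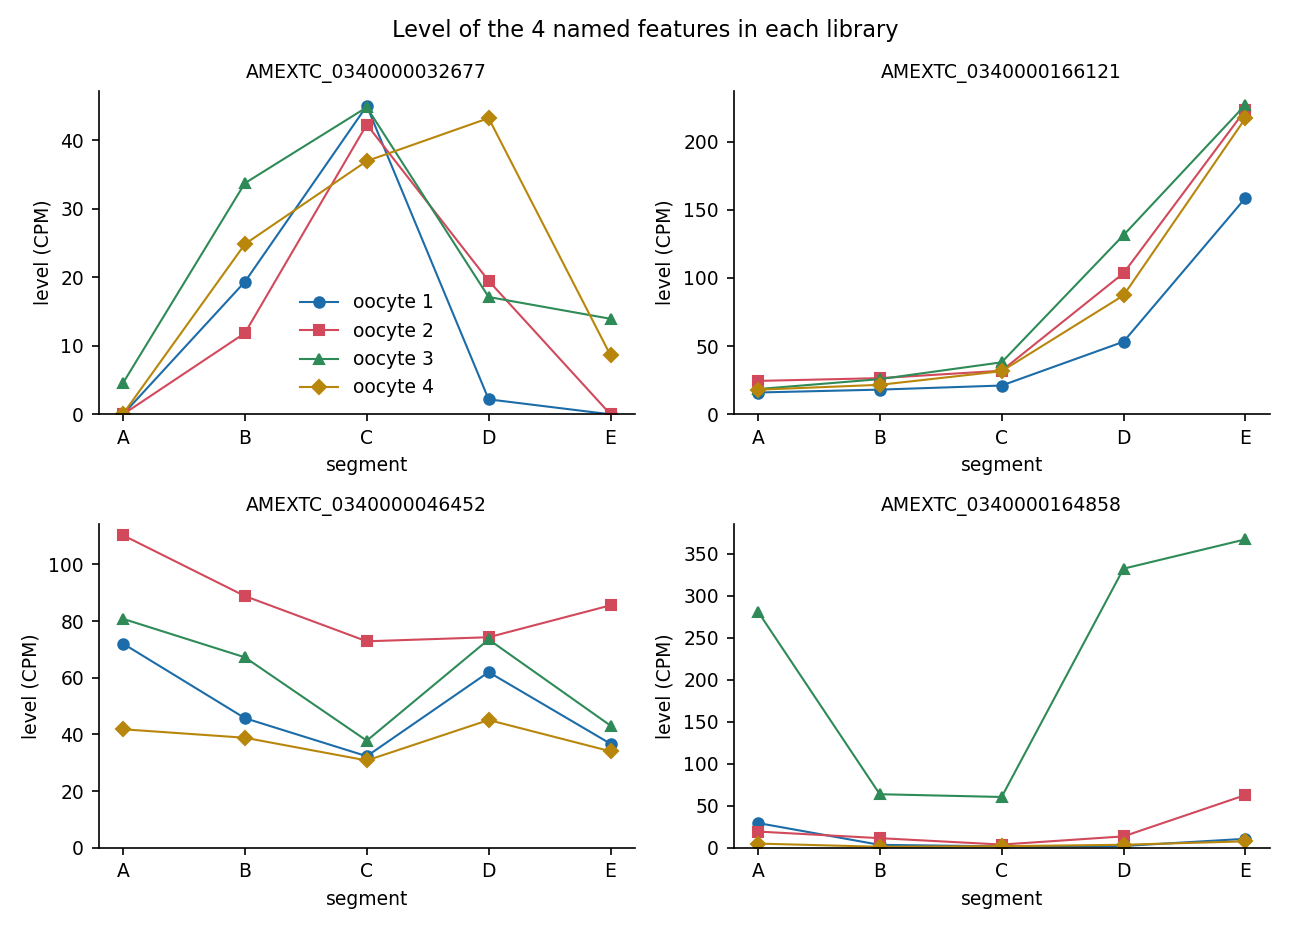
Level in CPM (vertical axis) of the 4 named features in each segment (horizontal axis), with a line per oocyte. AMEXTC_0340000032677 is highest in C in 3 oocytes (42.3 to 45.0 CPM), AMEXTC_0340000166121 rises to 159 to 227 CPM in E, AMEXTC_0340000046452 is lower in C than in A in all 4 oocytes, and AMEXTC_0340000164858 is high in oocyte 3 alone.

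All of these statements are about composition, and the authors' own scaling changes them. The authors' scaled table gave every library of C a total near 12873977 and every library of A a total near 5049515 (means of 4). With their constants, the median log2 fold change of C over A was 1.34 for all features, and 24092 features were called, while C against B still gave 0. The features called higher in E than in D on that scale had a mean oocyte median of 1.46 and those called lower one of 1.32. Both groups were thus higher in C, and their order was the same. The groups held 740 and 11007 features on that scale, so they are other sets than those above. The value of the lower group lay near the fitted median of all features, 1.34.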

How the data were processed

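The authors deposited raw counts of 32960 features in 20 libraries. Their other deposited table is a scaled signal, equal to the count times a constant per library (100% of values, within 0.01 counts). Per the submitters' processing notes, Trimmomatic, STAR 2.5.3a, kallisto and DESeq2 were used, with no role or order given. The annotation and genome build are not given in the sources used here. Every feature had at least 30 counts in some library. No table of sequences for these identifiers was used here.

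The tests used edgeR 4.0.16 under R 4.3.3. filterByExpr (minimum count 10, minimum total 15) kept 32302 features and left out 658 with 0.058% of the counts. Library sizes were TMM-scaled. Segment means and the oocyte as a block were fitted over all 20 libraries, leaving 12 residual degrees of freedom, with robust quasi-likelihood tests. Benjamini-Hochberg adjustment ran over all features, at a threshold of 0.05. Differences within an oocyte were taken on log2 CPM (prior count 2). Standard errors of fitted changes are the change divided by the square root of F. Single values per oocyte were tested by exact two-sided paired permutation, which cannot go below 0.13 with 4 pairs.

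Libraries of the same oocyte are paired by the labels. Deviations from the segment mean correlated between A and C of the same oocyte with a median r of 0.353 (0.310 to 0.463, 4 pairs of libraries). With the other oocyte of the pairs read above, the median r was 0.304 (0.278 to 0.448, 4 pairs of libraries). With oocytes of the other pair it was -0.364 (-0.417 to -0.227, 8 pairs of libraries). Deviations from a mean of 4 libraries sum to 0 over the oocytes, so positive values within pairs push those between pairs below 0. The negative values therefore do not show that the pairs were opposed. The first ranges overlapped, so the correlation does not show whether A and C match by oocyte or only by pair of oocytes.

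Named features had to have at least 10 CPM over A and C and the same direction in 4 oocytes, ranked by change if past the threshold, otherwise by unadjusted p, with at most 2 per direction. Comparisons, feature groups and this rule were chosen with earlier results of these data known. The analysis was run on simulated counts with planted changes in features of at least 10 CPM. These counts had the same dispersion for every feature and no oocyte effect, so they did not test the block. Alternatives were RLE factors, library totals, the authors' constants, limma 3.58.1 on log2 of the scaled value plus 1, 2 other filters, an adjusted p of 0.01, glmTreat at 1.5-fold, DESeq2 1.42.0, thinning, no block, A, B and C or A and C alone, each oocyte left out and each pair of oocytes alone. A prior count of 0.5 and a limit of 10 CPM on the groups were added after the values had been seen.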

Additional observations from a re-analysis of the deposited data

Results flagged for a closer look

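Among 42 groups of 4 values checked for a value far from the other 3, 9 stood out. A rate of 1 in 20 would give about 2.1, but it holds for independent, normally distributed values. Many of the groups are levels of the same 4 chosen features in the same oocytes, so an excess over chance is not shown. No explanation was tested for any of the 9, and 5 of the 9 are the same feature in the same oocyte.

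AMEXTC_0340000164858 had its highest level in oocyte 3 in every segment: 281 CPM in A (others 5.04 to 29.5), 63.8 CPM in B (1.27 to 11.5), 60.5 CPM in C (1.77 to 3.90), 332 CPM in D (2.19 to 13.6) and 367 CPM in E (7.76 to 62.8).

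AMEXTC_0340000032677 had 4.57 CPM in A of oocyte 3, where the other 3 libraries of A held 0 to 0.061 CPM. AMEXTC_0340000046452 had 72.8 CPM in C of oocyte 2, where the others held 30.8 to 37.8 CPM. AMEXTC_0340000166121 had 159 CPM in E of oocyte 1, where the others held 217 to 227 CPM.

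The distance between C and D, as the median absolute log2 difference, was 0.255 in oocyte 3 and 0.193 to 0.202 in the other 3 oocytes.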

How the results depend on the processing

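The count of 0 for C against A, for each step, for B against the mean of A and C and among the 3 segments was the same in edgeR with RLE factors or library totals, under both other filters, thinned, without the block, with each oocyte left out, in each pair of oocytes and in A, B and C alone. For C against A this also held in A and C alone and against a 1.5-fold change. DESeq2 gave other counts, and so did the authors' scaling except for C over B, which stayed at 0. The cause of the DESeq2 difference was not tested.

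DESeq2 called 72 features for C against A, 39 for B over A, 39 for C over B, 27 for B against the mean of A and C, 172 among A, B and C, 3260 for E against D and 4062 for D against C. The count of 172 came from a likelihood ratio test refitted on the libraries of A, B and C alone, the others from all 20 libraries. The authors' constants multiply whole segments and gave 24092 for C against A, 23632 for B against A, 16017 for B against the mean of A and C, 23005 among A, B and C, 11747 for E against D and 26701 for D against C. On them the groups called higher and lower in E had C minus A medians of 1.46 and 1.32, and the share of the group lower in E changed by -0.887 points from A to C. Limma on the authors' values gave 21840 for C against A and 21676 for B against A. AMEXTC_0340000046452 was higher in C on their scaling (0.53 with their constants, 0.52 in limma), below the median shift of all features there (1.34 and 1.31).

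The groups moved with other settings too. E against D gave 859 without the block (no replicate block), 4082 with library totals, 928 at an adjusted p under 0.01, 123 thinned to the smallest total, 101 in oocytes 1 and 4 and 0 in oocytes 2 and 3 (edgeR, 3812 unadjusted), where no group could be formed. D against C gave 1070 without the block, 1101 at 0.01, 116 thinned, 0 in oocytes 1 and 4 (3016 unadjusted) and 200 in oocytes 2 and 3. With library totals the share of the group lower in E changed by -0.896 points. Of the calls of E against D, 62.3% were higher in E with TMM, 69.4% with RLE, 27.2% with library totals and 6.30% with the authors' constants. Of those of D against C, 60.2% were higher in D with TMM, 40.7% with library totals and 0.517% with the authors' constants.

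Leaving out each oocyte gave 810 to 1508 for E against D and 771 to 1824 for D against C. With groups formed anew, the C minus A median ran from 0.085 to 0.241 for the group higher in E and from -0.119 to -0.044 for the group lower in E, and the share changed by 0.1997 to 0.408 and by -0.254 to -0.067 points. Without the block, 77 of the 1272 features were higher in C and 6 lower at an unadjusted p under 0.05, against 159 and 10 with it, where all features gave 300 and 213, against 646 and 529. Thinned, 46 were higher and 15 lower, where all features gave 262 and 217. RLE factors and both other filters kept each group median and share within its spread over oocytes, and a prior count of 0.5 and the limit of 10 CPM kept each group median within it.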

Other observations

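The complexity of the RNA differed little between C and A. The 100 most abundant features of a library held 11.4% ± 1.82 of the counts in A and 11.9% ± 0.370 in C (SD, n = 4 each), higher in C in 1 of 4 oocytes. Segment A of oocyte 1 was lowest at 8.83%. The number of features that together held 50% of the counts was 2675 ± 126 in A and 2678 ± 51.8 in C (SD, n = 4 each; exact two-sided paired permutation p 1 for both measures).

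Of the 72 features that DESeq2 called between C and A, 50 moved the same way in all 4 oocytes. Over all features tested, 7.66% were higher and 7.2% lower in C in all 4 oocytes. The 72 were called on these same libraries, so a shared direction is in part built in. Of the 72, 32 had a library of A or C with 0 counts, and that share over all features was not taken. Among the 32 that DESeq2 called higher in C, 6 were called higher in E than in D by edgeR and 0 lower, where 3.94% and 2.38% of all features tested were. Among the 40 lower in C, 1 was called higher and 3 lower.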
